A study of Mus musculus with 18 samples.

Results

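Immediate early genes are the genes a cell transcribes within minutes of a stimulus, from factors that are already present and without making new protein first. The 10 described here are Egr1, Fos, Jun, Junb, Ier2, Ier3, Atf3, Nr4a1, Nr4a3 and Klf6, taken from 18193 genes named on an Affymetrix expression array. The genes were chosen with earlier results of these data known. Every probe set that the platform annotation gives to one of their symbols was included, which made 17 probe sets. Of these, 15 passed the filter on low signal and were tested, and they covered all 10 genes. A probe set is a group of short probes that reports one transcript.

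Most immediate early genes encode transcription factors whose messenger RNA is short-lived, so their level at sampling reflects very recent events. Serum response factor with its ETS-family partners, and the cyclic AMP response element binding protein, are the classical switches, driven by MAP kinases and calcium signals. In liver, members of the group are known to rise after partial hepatectomy, feeding, injury and toxic stress, and also with the handling of tissue. Fos and Jun proteins pair to form the AP-1 factor, Egr1 is a zinc finger factor, and Nr4a1 and Nr4a3 are orphan nuclear receptors.

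The arrays measured whole-liver RNA of male mice with intact Hmgn1 (Hmgn1+/+, wild type) or without it (Hmgn1-/-, knockout), HMGN1 being a protein that binds nucleosomes. Both genotypes came from heterozygous crosses and were then bred as separate homozygous lines. Within each genotype there were 3 groups of 3 arrays. The first was not injected and was labelled 4 weeks. The second received saline at 4 weeks of age and the third received 10 µg per g body weight of the liver carcinogen N-nitrosodiethylamine (DEN) at that age, and both were labelled 12 weeks. The labels can be read as an age or as a time after injection, so age is not matched between the 4-week arrays and the others. Nothing in the labels ties the replicates of a group to separate animals. The p-values below thus rest on how far replicate arrays differ, and part of that may be technical. In whole tissue, fewer cells of a type and less RNA per cell cannot be told apart.

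All 18 arrays had been scaled by the authors to the same trimmed mean signal of 150, and arrays of one group correlated at 0.964 to 0.986. The 6 saline arrays stood apart: their hybridization controls averaged 7.70 to 8.20 on the log2 scale against 10.3 to 11.0 on the other arrays, and their highest signal was 16720 to 21752 against 46967 to 60173. Differences between saline and the other conditions therefore cannot be told apart from whatever set those arrays apart. The 3′ to 5′ signal ratio of Gapdh, a sign of RNA quality in which a higher value means less intact RNA, was 1.13 to 2.19 on the 4-week arrays, 1.19 to 1.41 on the saline arrays and 0.907 to 1.13 on the DEN arrays. Hmgn1 itself gave a signal of 5039 to 7948 in wild type and 4838 to 6894 in knockout livers (smallest adjusted p = 0.898 over the 3 genotype comparisons), so its brightest probe set does not check the genotype labels. The 7 hepatocyte markers measured summed to 157314 to 179827 on the 4-week arrays and to 72046 to 91225 on the saline arrays.

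Egr1 was the most variable of the 10 genes between arrays of one group. The pooled SD within groups of its log2 signal was 0.80, larger than in 99.8% of the 1000 tested probe sets nearest to it in mean signal. The same share was 97.2% for Nr4a1, 96.5% for Nr4a3 and 92.3% for Fos, but 66.5% for Junb and 0.4% for the brightest Klf6 probe set. The spread was largest after DEN. There the highest Egr1 signal was 5.99 times the lowest in wild type and 5.43 times the lowest in knockout livers, against 1.24 and 1.22 times at 4 weeks. With 3 arrays and 10 genes, some array of a group must be the highest, and some the lowest, for several members. How often this happens was not counted over all probe sets. Replicate 1 of the knockout DEN group was the highest of its 3 arrays for 7 of the 10 genes, and replicate 3 was the lowest for 9 of 10. Replicate 3 was also the lowest for 7 genes in the wild-type DEN group and for 7 genes in the wild-type 4-week group. In the knockout DEN, wild-type DEN and wild-type 4-week groups, replicate 3 also had the lowest median log2 signal over all probe sets (5.34, 5.37 and 5.30). The part of such a level difference between arrays in these ranks was not tested. In every saline and DEN group Egr1 was highest in replicate 1 and lowest in replicate 3, which was not so at 4 weeks.

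**Figure D1:**
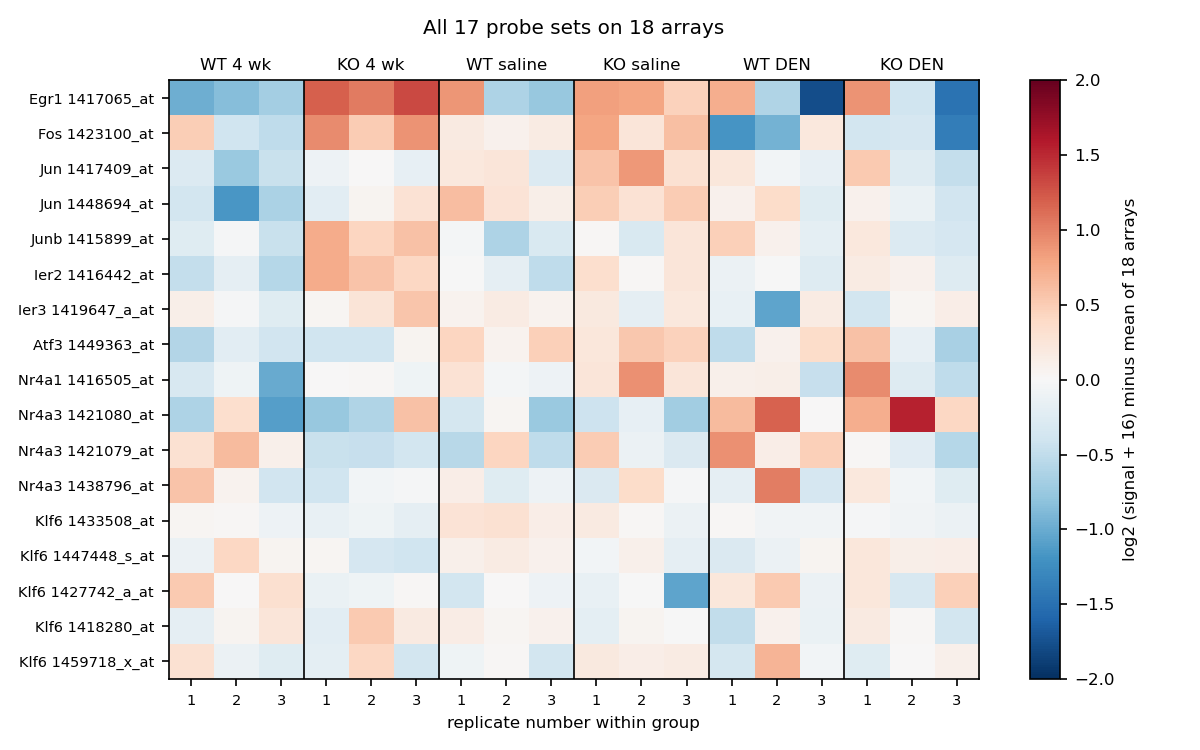
Each row is one of the 17 probe sets and each column one of the 18 arrays. Colour gives the log2 signal (16 added) minus the mean of that probe set over all arrays, on a scale from -2 to 2. The knockout 4-week columns are above the row mean for Egr1, Fos, Junb and Ier2, and the DEN columns of replicate 3 are below it for Egr1.

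At 4 weeks, without any injection, Egr1, Ier2 and Junb were higher in knockout than in wild-type livers, by 4.07-fold, 1.98-fold and 1.76-fold. None of the tested member probe sets was called lower. These were 3 of the 15 probe sets tested, where 1.27% of all 27022 tested probe sets were called higher and 2.26% were called in either direction. Differences are given as log2 of the signal plus 16, which understates changes at low signal, and a probe set was called at a limma p under 0.05 after Benjamini-Hochberg adjustment over all tested probe sets.

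Egr1 encodes a zinc finger factor induced by growth factors and injury. Its signal in the 3 wild-type livers was 398, 435 and 492, and in the 3 knockout livers it was 1849.5, 1660.2 and 2029.5. The groups did not overlap, and the lowest knockout array was far above the highest wild-type array. The difference was 2.03 on the log2 scale (SE 0.50, 95% interval 0.99 to 3.06, n = 3 arrays per group, limma adjusted p = 0.0347). The size hardly moved when any one of the 6 arrays was left out (1.95 to 2.10), but the adjusted p passed 0.05 in each of those 6 fits (0.0712 to 0.117). It also did so without the 6 saline arrays, which share in the estimate of spread (adjusted p = 0.0553), and with no filter on low signal (0.0637). Without the 4-week arrays of highest Gapdh ratio the difference was 2.01 and the adjusted p was 0.162. In a fit on the 2 compared groups alone the adjusted p was 6.60e-07.

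Ier2 encodes a small nuclear protein of the early growth response. It gave 241, 302 and 225 in wild-type and 586, 516 and 460.4 in knockout livers at 4 weeks. Every knockout array was above every wild-type array. The difference of 0.99 (SE 0.14, 95% interval 0.69 to 1.28, adjusted p = 0.00091) kept its call when each array was left out in turn (0.90 to 1.10) and in all 11 other settings tried (0.87 to 1.03).

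Junb is the AP-1 partner that is best known for damping the activity of Jun. Its signal was 55.6, 67.5 and 46.4 in wild-type and 126, 98.5 and 110.5 in knockout livers, again without overlap. The difference was 0.82 (SE 0.21, 95% interval 0.39 to 1.25, adjusted p = 0.0397). The call was lost when replicate 1 or 3 of the wild type or any of the 3 knockout arrays was left out (highest adjusted p = 0.155, with a difference of 0.72, without wild-type replicate 3). It was also lost with no filter on low signal (adjusted p = 0.0727), without the saline arrays (0.0715) and without the 4-week arrays of highest Gapdh ratio (0.130).

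Fos, the classical immediate early gene and the main partner of Jun, gave 55.9, 22.7 and 19.9 in wild-type livers at 4 weeks and 81.6, 56.0 and 79.0 in knockout livers. The ranges did not overlap, though the highest wild-type array almost reached the lowest knockout array. The difference was 0.91 (SE 0.33, 95% interval 0.22 to 1.60) and did not pass the test (adjusted p = 0.173). Jun has 2 probe sets. The one of higher mean gave 87.4, 59.0 and 76.1 in wild type and 100.4, 109 and 95.8 in knockout, a difference of 0.40 (SE 0.21, adjusted p = 0.397). The other gave 69.9, 33.0 and 55.4 against 79.1, 98.1 and 118, a difference of 0.76 (SE 0.20, adjusted p = 0.0531). Neither passed, and in both the knockout arrays lay above all wild-type arrays. The second probe set passed with the 60th percentile filter (adjusted p = 0.0412), with the Gapdh covariate (0.0279) and without wild-type replicate 1 (0.94, adjusted p = 0.0318).

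With these, 6 of the 15 probe sets did not overlap between the genotypes at 4 weeks, all of them higher in knockout, where 10.9% of all tested probe sets were higher without overlap. The median difference over the 10 genes, each at its brightest probe set, was 0.42, beside 0.02 over all 12896 genes tested, and 9 of the 10 differences were above 0, beside 53.7% of all genes. The single gene below 0 was Klf6, at -0.12 (SE 0.13). Macrophage markers moved the other way in these livers. The 12 Kupffer cell and macrophage genes summed to 6874 to 7421 in wild-type and 4517 to 4989 in knockout livers, and 4 of the 12 were lower and 0 higher in knockout. The 10 stellate cell and matrix genes summed to 5545 to 6386 and 4276 to 4463, with 2 lower and 0 higher. Of all 27022 tested probe sets, 268 were called lower and 343 higher in this comparison. Of the other markers, 1 of 7 hepatocyte genes and 1 of 2 acinar pancreas genes were higher in knockout, and 0 passed among 6 neutrophil, 4 lymphocyte, 8 endothelial, 2 cholangiocyte, 1 erythroid, 3 muscle and 3 adipocyte genes tested. Among the defining markers, Krt19, Krt7, Cd3e, Cd4 and Cd79a were below the signal filter. The part of these cell types in the differences above was not tested.

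**Figure D2:**
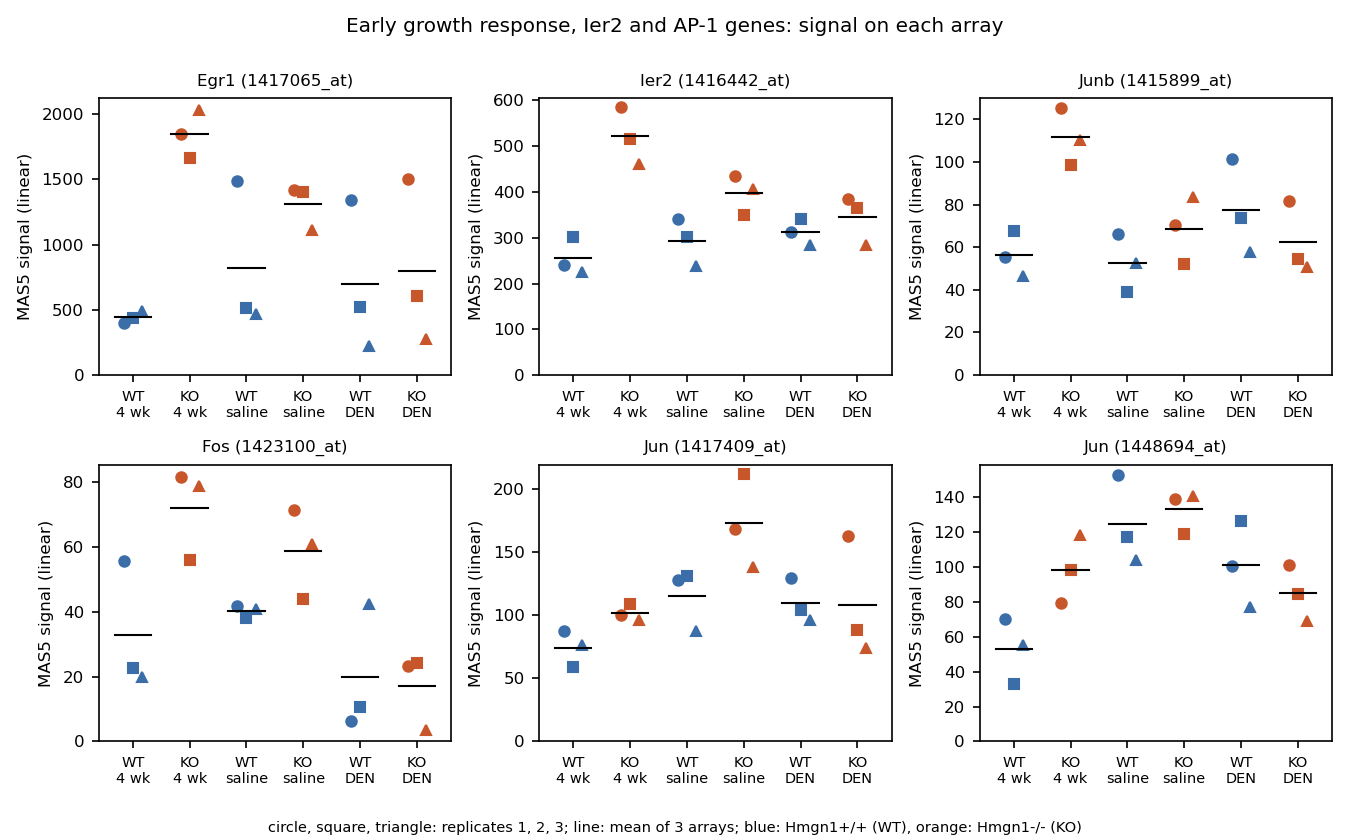
Signal of Egr1, Ier2, Junb, Fos and the 2 Jun probe sets on each array, on linear axes that start at 0, with 1 point per array and a line at the mean of 3. The knockout 4-week points of Egr1 lie between 1660.2 and 2029.5, above every other array of the study.

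The AP-1 genes are shown with the 250 bases before their annotated starts, because Fos and Junb both fell from 4 weeks to DEN in knockout livers, where neither Jun probe set passed the test. Fos lies on the plus strand at chr12:85473890-85477274, Junb on the minus strand at chr8:84976909-84978748 and Jun on the minus strand at chr4:95049036-95052222 (mouse build GRCm38.p6). The windows are chr12:85473640-85473889, chr8:84978749-84978998 and chr4:95052223-95052472, printed 5′ to 3′ in the direction of transcription from RefSeq. Capitals mark the motifs TGACG, then the TATA box core TATAAA and the SP1 core GGGCGG, on either strand, so that a GGGCGG of the other strand reads CCGCCC.
Fos: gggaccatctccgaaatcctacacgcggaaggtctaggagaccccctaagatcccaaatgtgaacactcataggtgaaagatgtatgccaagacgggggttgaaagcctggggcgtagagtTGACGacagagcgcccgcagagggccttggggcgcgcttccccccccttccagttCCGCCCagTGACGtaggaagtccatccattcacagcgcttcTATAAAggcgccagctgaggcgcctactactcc
Junb: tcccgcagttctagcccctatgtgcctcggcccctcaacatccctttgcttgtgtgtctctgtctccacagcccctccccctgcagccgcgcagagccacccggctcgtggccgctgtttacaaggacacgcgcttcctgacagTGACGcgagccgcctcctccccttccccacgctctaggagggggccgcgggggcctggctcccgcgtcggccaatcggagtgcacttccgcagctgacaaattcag
Jun: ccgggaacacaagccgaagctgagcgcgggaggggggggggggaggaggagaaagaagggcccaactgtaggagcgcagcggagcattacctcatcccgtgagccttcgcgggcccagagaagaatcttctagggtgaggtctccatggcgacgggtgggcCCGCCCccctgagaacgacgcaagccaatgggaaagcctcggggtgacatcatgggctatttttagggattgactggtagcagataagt
The core TATAAA of a TATA box stood 33 to 28 bases before the Fos start and in no other of the 8 member promoters that could be read, while 12.4% of 32851 promoter windows of this length held one. GGGCGG, the core of an SP1 site, was present in 7 of the 8 (Junb was without it), against 32.7% of all windows. TGACG, the first part of a cyclic AMP response element and a motif chosen after the sequences were seen, was in 5 of 8 (Fos at 129 to 125 and 66 to 62 bases, Junb at 106 to 102 bases, Atf3, Nr4a1 and Nr4a3), against 17.8%. The full element TGACGTCA, which contains TGACG, was in 0 of 8 (1.55% of windows), and so were the AP-1 site TGACTCA (4.46%), the CArG box that binds serum response factor (1.47%), the ETS site CCGGAAG (6.91%) and the EGR site GCGTGGGCG (0.536%). The EGR site GCGGGGGCG, which can overlap GGGCGG, was in Nr4a1 alone (2.57%). All motifs were searched on both strands, and a match is a description of letters in this window. The 8 promoters do not include Egr1 or Ier2, and bases farther than 250 before the start were not searched. A count of 0 among so few windows therefore does not show that these genes lack a site.

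After saline, 0 of the 15 probe sets differed between the genotypes at an adjusted p under 0.05 in limma, where 0.0111% of all probe sets did. At an unadjusted p under 0.05 there were 2, Ier2 and the brighter Jun probe set, where 5.28% of all probe sets passed. Ier2 gave 339.9, 301 and 237 in wild type and 435, 351 and 406 in knockout. The ranges did not overlap, and the difference was 0.43 (95% interval 0.13 to 0.73, adjusted p = 0.813). The brighter Jun probe set gave 128, 131 and 87.8 against 168, 212 and 138, also without overlap, with a difference of 0.52 (95% interval 0.08 to 0.96, adjusted p = 0.933). Egr1 gave 1486, 517 and 467 in wild type and 1420.3, 1400.4 and 1111 in knockout. Here 1 wild-type array was the highest of all 6, and the difference was 0.86 (95% interval -0.18 to 1.89, adjusted p = 0.986). Fos, with 41.8, 38.0 and 40.9 against 71.4, 44.1 and 61.1, did not overlap either, at a difference of 0.40 (adjusted p = 0.993). With a dim Klf6 probe set, 4 of 15 were higher in knockout without overlap, where 10.9% of all probe sets were. The median over the 10 genes was 0.35, beside 0.02 over all genes, and 7 of 10 were above 0.

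After DEN, 0 of the 15 probe sets differed between the genotypes by the limma test, where 0.0074% of all probe sets did, and 0 had an unadjusted p under 0.05, where 8.97% did. Egr1 gave 1339, 519.5 and 224 in wild type and 1503, 603 and 277 in knockout. The 2 groups covered almost the same wide range, and the difference was 0.22 (95% interval -0.82 to 1.26, adjusted p = 0.936). An interval this wide includes a difference above 2-fold in the direction seen at 4 weeks. Ier2 gave 313, 341 and 283 against 385, 365 and 285 and was bounded more closely, at 0.13 (95% interval -0.17 to 0.43). Junb gave 101, 73.5 and 57.5 against 81.6, 54.3 and 50.9, at -0.25 (95% interval -0.68 to 0.18). Fos was dim in both groups, with 6.35, 10.5 and 42.6 against 23.4, 24.2 and 3.58, at -0.05 (95% interval -0.74 to 0.64). The median over the 10 genes was 0.05 and 5 of 10 were above 0. The dimmer Klf6 probe set of the plotted pair was the 1 probe set without overlap, where 4.51% of all probe sets were higher without overlap.

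**Figure D3:**
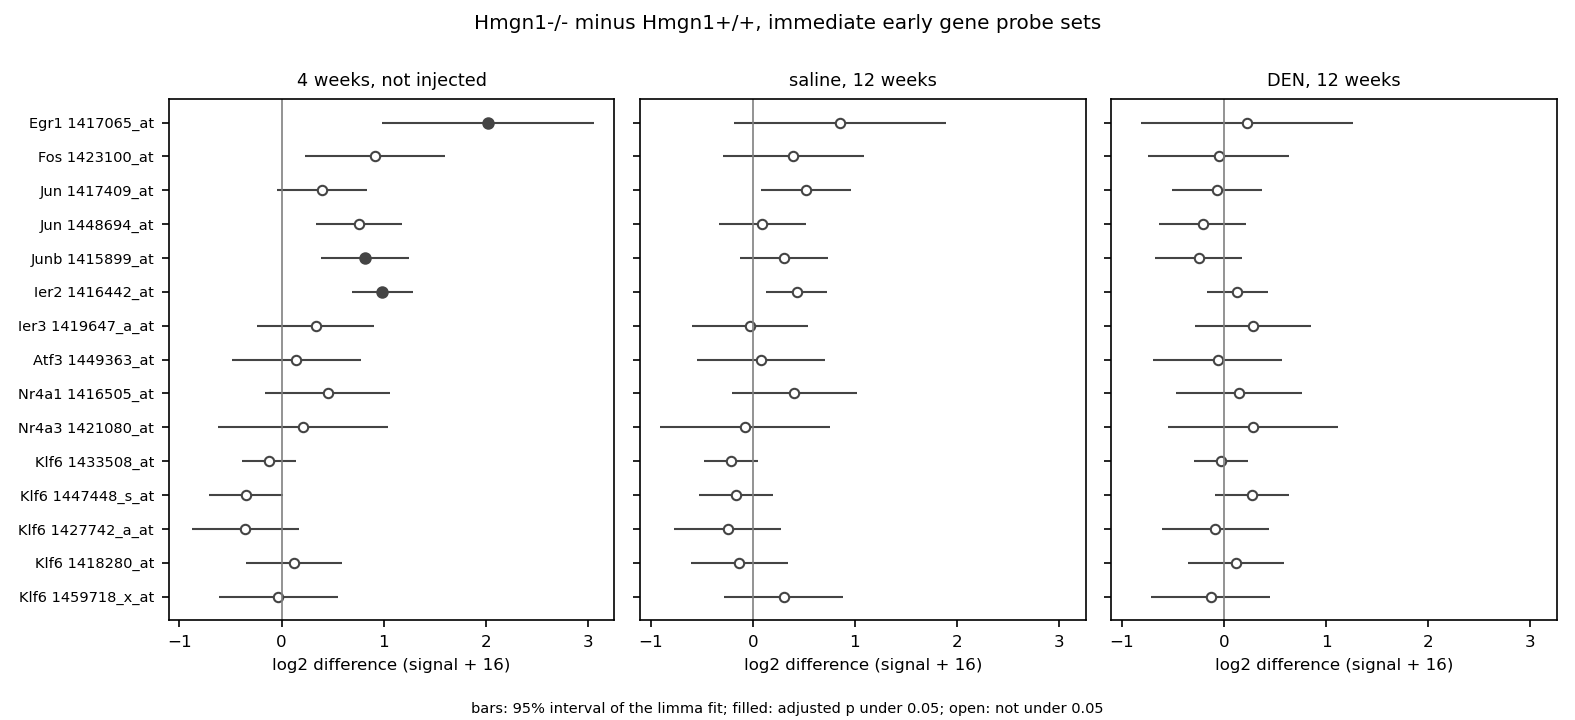
Knockout minus wild-type difference in log2 signal (16 added) for the 15 tested probe sets at 4 weeks, after saline and after DEN, with 95% intervals from limma. Filled points passed an adjusted p of 0.05, and these are Egr1, Junb and Ier2 at 4 weeks.

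The change of the genotype difference from one condition to another was tested directly. From 4 weeks to DEN the difference of Ier2 became smaller, by -0.86 (SE 0.20, limma adjusted p = 0.0498), from 0.99 to 0.13. It was the 1 of 15 probe sets called, where 0.762% of all probe sets were. This call stood at the threshold and was lost in 9 of the 12 fits that left out 1 array (each 4-week array except wild-type replicate 2, and DEN replicates 1 and 2 of the wild type and 2 and 3 of the knockout). Over all 12 fits the value was -0.97 to -0.73, with adjusted p up to 0.129. The corresponding change was -1.80 (SE 0.71, adjusted p = 0.247) for Egr1, -1.07 (SE 0.29, adjusted p = 0.0899) for Junb and -0.97 (SE 0.47, adjusted p = 0.361) for Fos, so for these 3 a difference that was specific to 4 weeks was not shown. Between 4 weeks and saline 0 of 15 passed, where 0.0037% of all probe sets did, and 2 had an unadjusted p under 0.05, where 4.02% did. Between saline and DEN 0 of 15 passed, where 0% did, and 0 had an unadjusted p under 0.05, where 8.03% did.

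Comparing the conditions within a genotype, Fos, Junb and Ier2 were lower after DEN than at 4 weeks in knockout livers, and none of the 3 passed in wild-type livers. The knockout and wild-type comparisons use different arrays, but the knockout comparison shares its 4-week arrays with the genotype comparison above. The 3 fallen probe sets of 15 compare with 4.71% of all probe sets called lower and 8.24% called in either direction. Fos went from 81.6, 56.0 and 79.0 to 23.4, 24.2 and 3.58, without overlap, a fall of -1.48 (SE 0.33, adjusted p = 0.00974). Because the DEN signals are low, its size depended on the number added before the logarithm and was -2.35 with 1 added and -0.75 with 64 added. Junb fell by 0.72 (SE 0.21, adjusted p = 0.0346) and Ier2 by 0.58 (SE 0.14, adjusted p = 0.0168). For both, the highest DEN array lay below the lowest 4-week array. Egr1 also lay lower on every DEN array, and its difference of -1.51 (SE 0.50, adjusted p = 0.0641) did not pass. It was -2.12 (adjusted p = 0.0122) without knockout DEN replicate 1, whose signal of 1503 was the highest of the DEN arrays. Altogether 4 of 15 were lower without overlap, where 14.4% of all probe sets were.

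RNA quality also differed between these groups. The Gapdh ratio did not overlap between the knockout 4-week and DEN arrays, and with the ratio as a covariate 0 of the 15 probe sets passed and 8 probe sets passed in all (Fos -1.80, adjusted p = 0.170, Junb -0.32, adjusted p = 0.715, Ier2 -0.25, adjusted p = 0.651). The part of the ratio in the result was not tested beyond this. Leaving out knockout 4-week replicate 1 ended all 3 calls (adjusted p 0.0505 for Fos, 0.137 for Junb and 0.0947 for Ier2), leaving out knockout DEN replicate 3 ended those of Junb and Ier2, and leaving out 4-week replicate 3 or DEN replicate 2 ended that of Junb. In the same livers 9 of the 12 macrophage genes were higher after DEN than at 4 weeks, where 954 of all 27022 tested probe sets were. The 3 adipocyte genes summed to 5766 on 1 DEN array, where the median of the group was 386. The part of macrophages and adipocytes in the falls was not tested. In wild-type livers the dimmer Jun probe set rose, from 69.9, 33.0 and 55.4 to 101, 126 and 77.2, by 0.79 (SE 0.20, adjusted p = 0.0312). It was the 1 of 15 called, where 4.4% of all probe sets were called and 1.97% were called higher, and the brighter Jun probe set, also without overlap, gave 0.48 (adjusted p = 0.212). With the Gapdh ratio as a covariate it was 0.51 (adjusted p = 0.337), and the call was lost in 6 of 11 other settings. It was also lost without wild-type 4-week replicate 2 or 3 or DEN replicate 1 or 2 (0.56, adjusted p = 0.168, without 4-week replicate 2). In wild-type livers the difference was -0.51 for Fos, 0.35 for Junb, 0.28 for Ier2 and 0.29 for Egr1, and none passed (adjusted p 0.297 to 0.798).

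Between saline and 4 weeks, the dimmer Jun probe set was higher after saline in wild-type livers, at 153, 117 and 104 against 69.9, 33.0 and 55.4. All saline arrays were above all 4-week arrays, and the difference of 1.05 (SE 0.20, adjusted p = 0.00165) was kept without each array in turn. The brighter Jun probe set gave 0.54 (adjusted p = 0.134). The dimmer one was the 1 of 15 called, where 8.26% of all probe sets were called and 4.22% were called higher. In knockout livers 0 of 15 passed in limma, where 9.94% did, and 4 had an unadjusted p under 0.05, where 23.4% did. Nearest to the threshold were the brighter Jun probe set at 0.66 (SE 0.21, adjusted p = 0.0501) and Junb at -0.60 (SE 0.21, adjusted p = 0.0696). Those 2 values have opposite signs, and both groups of arrays were without overlap for each of them.

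Between DEN and saline, 0 of 15 passed in wild-type livers by limma, where 6.54% of all probe sets did, and 4 had an unadjusted p under 0.05, where 19.5% did. Fos was nearest by size among the AP-1 genes, at -0.79 (SE 0.33, adjusted p = 0.181), and without wild-type DEN replicate 3 it was -1.21 (adjusted p = 0.0294). In knockout livers 3 of 15 were called, where 15.1% of all probe sets were. Of these 2 were lower and 1 was higher, where 8.65% and 6.42% of all probe sets were. Fos was lower after DEN by -1.24 (SE 0.33, adjusted p = 0.0144), without overlap. The Fos call was kept in all 8 other settings. It was lost in 3 of 6 fits that left out 1 array: DEN replicate 3 (-0.89, adjusted p = 0.0874) and saline replicates 1 and 3. The brighter Jun probe set was lower by -0.65 (SE 0.21, adjusted p = 0.0422), although DEN replicate 1, at 163, lay among the saline arrays. This call was lost in 5 of 9 other settings: quantile normalization (adjusted p = 0.115), centred array medians (0.112), no filter (0.0727), the Gapdh covariate (0.0553) and a fit on the compared groups alone (0.10). It was also lost without DEN replicate 2 or 3 or saline replicate 1 or 2 (highest adjusted p = 0.198). Nr4a3 was higher. Without knockout DEN replicate 1 the count became 6 of 15, with Egr1 at -1.63 (adjusted p = 0.0294) and Nr4a1 at -0.84 (adjusted p = 0.0347) among them, and without saline replicate 1 it became 0. It was 1 without DEN replicate 2, DEN replicate 3 or saline replicate 3.

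**Figure D4:**
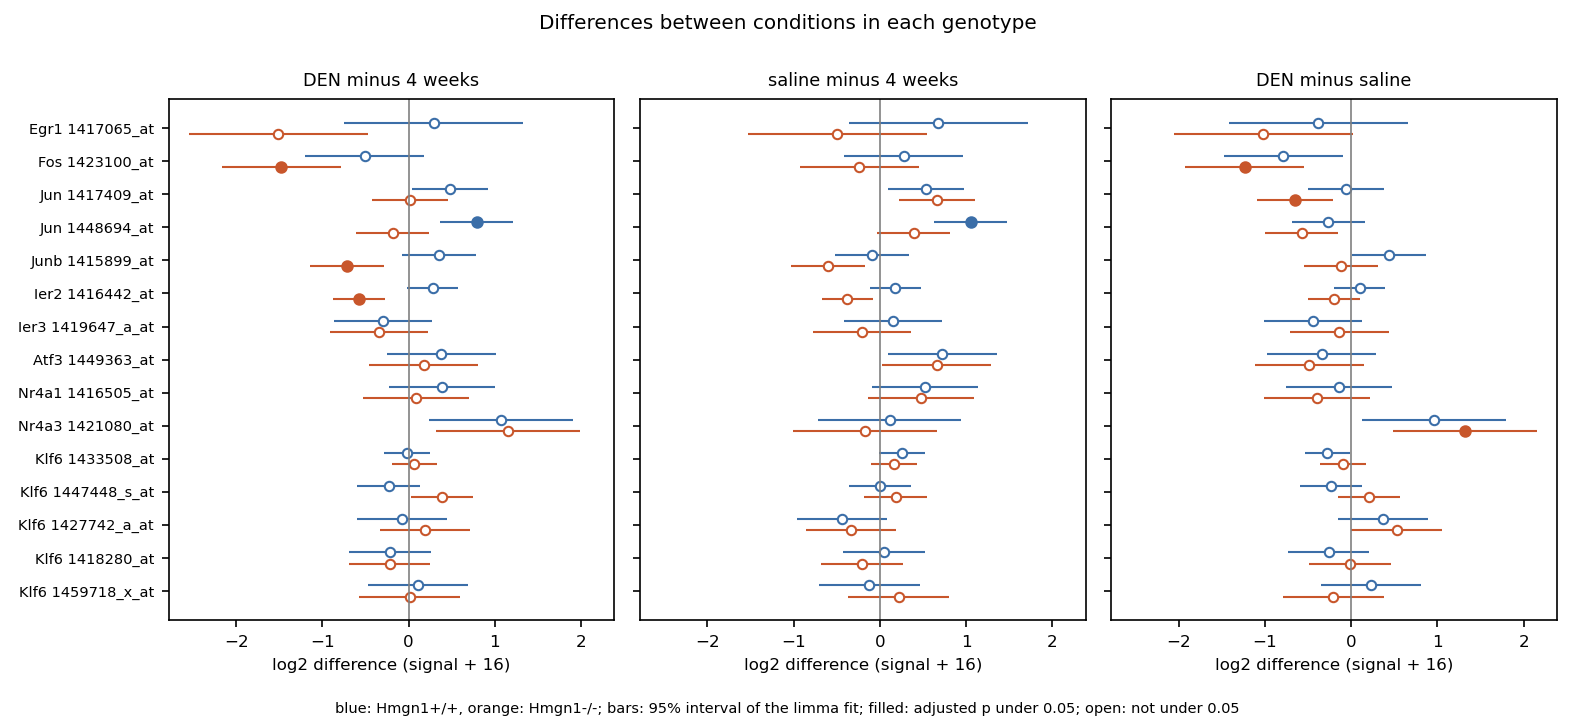
Differences between conditions in log2 signal (16 added) for the 15 tested probe sets, wild type in blue and knockout in orange, with 95% intervals from limma. Filled points passed an adjusted p of 0.05. Among them, Fos, Junb and Ier2 lie at -1.48, -0.72 and -0.58 for DEN minus 4 weeks in knockout livers. The dimmer Jun probe set is filled in wild type for DEN minus 4 weeks (0.79) and saline minus 4 weeks (1.05). For DEN minus saline in knockout livers Fos, the brighter Jun probe set and Nr4a3 are filled.

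Among the nuclear receptors, the tested probe set of Nr4a3 had its highest group means after DEN in both genotypes. It gave 43.2, 71.0 and 22.5 in wild-type DEN livers and 47.4, 95.3 and 34.7 in knockout DEN livers. At 4 weeks it gave 8.82, 32.4 and 1.80 in wild type and 6.74, 9.13 and 41.5 in knockout. Thus 1 array of each genotype at 4 weeks lay within the DEN range of that genotype. On saline arrays it gave 14.1, 23.3 and 6.77 in wild type and 12.6, 18.2 and 7.62 in knockout. The knockout DEN and saline groups did not overlap, whereas the lowest wild-type DEN array lay just under the highest wild-type saline array. The difference was 1.32 in knockout (SE 0.40, adjusted p = 0.0297) and 0.96 in wild type (SE 0.40, adjusted p = 0.175), and the change between genotypes was 0.36 (SE 0.57, adjusted p = 0.919). The knockout call was lost without DEN replicate 2 or saline replicate 1 or 3 (0.99, adjusted p = 0.149, without DEN replicate 2), and with 1 added in place of 16 (2.07, adjusted p = 0.0845). Against 4 weeks the difference was 1.07 in wild type (adjusted p = 0.135) and 1.15 in knockout (adjusted p = 0.0805, and 0.0386 at 1.57 without 4-week replicate 3, which gave 41.5). The other 2 Nr4a3 probe sets were below the signal filter, ranging from 0.907 to 31.3 and from 0.774 to 28.7, and do not show a rise after DEN in knockout livers, where the first gave 9.61, 5.38 and 0.907. That probe set was lower in knockout than in wild type without overlap at 4 weeks (2.48, 2.24 and 3.41 against 15.1, 22.9 and 11.0) and after DEN (against 31.3, 11.6 and 18.9), at -0.77 in both, and was not tested.

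Nr4a1, the receptor also known as Nur77, was measured between 24.5 and 141. Its highest arrays were knockout DEN replicate 1 at 141 and knockout saline replicate 2 at 136, while the other 2 knockout DEN arrays gave 51.5 and 41.3. None of its differences between genotypes passed (0.45 at 4 weeks, 0.41 after saline and 0.15 after DEN, adjusted p 0.508 to 0.993). Atf3, a stress-induced transcription factor, was dim, from 4.62 to 32.5. All saline arrays were above all 4-week arrays in both genotypes, with differences of 0.72 (SE 0.30, adjusted p = 0.166) in wild type and 0.66 (SE 0.30, adjusted p = 0.189) in knockout that did not pass. Its highest and lowest values, 32.5 and 4.62, were both in the knockout DEN group. Ier3, a regulator of cell survival, ranged from 2.30 to 40.1, with group means from 15.8 to 30.9 that all overlapped with their neighbours in order. Klf6, a zinc finger factor expressed in many liver cell types, had a steady brightest probe set, which stayed between 72.9 and 109, while another ranged from 17.2 to 83.5. It has 5 tested probe sets and none passed in any of the 12 comparisons, although the 5 did not always have the same sign.

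**Figure D5:**
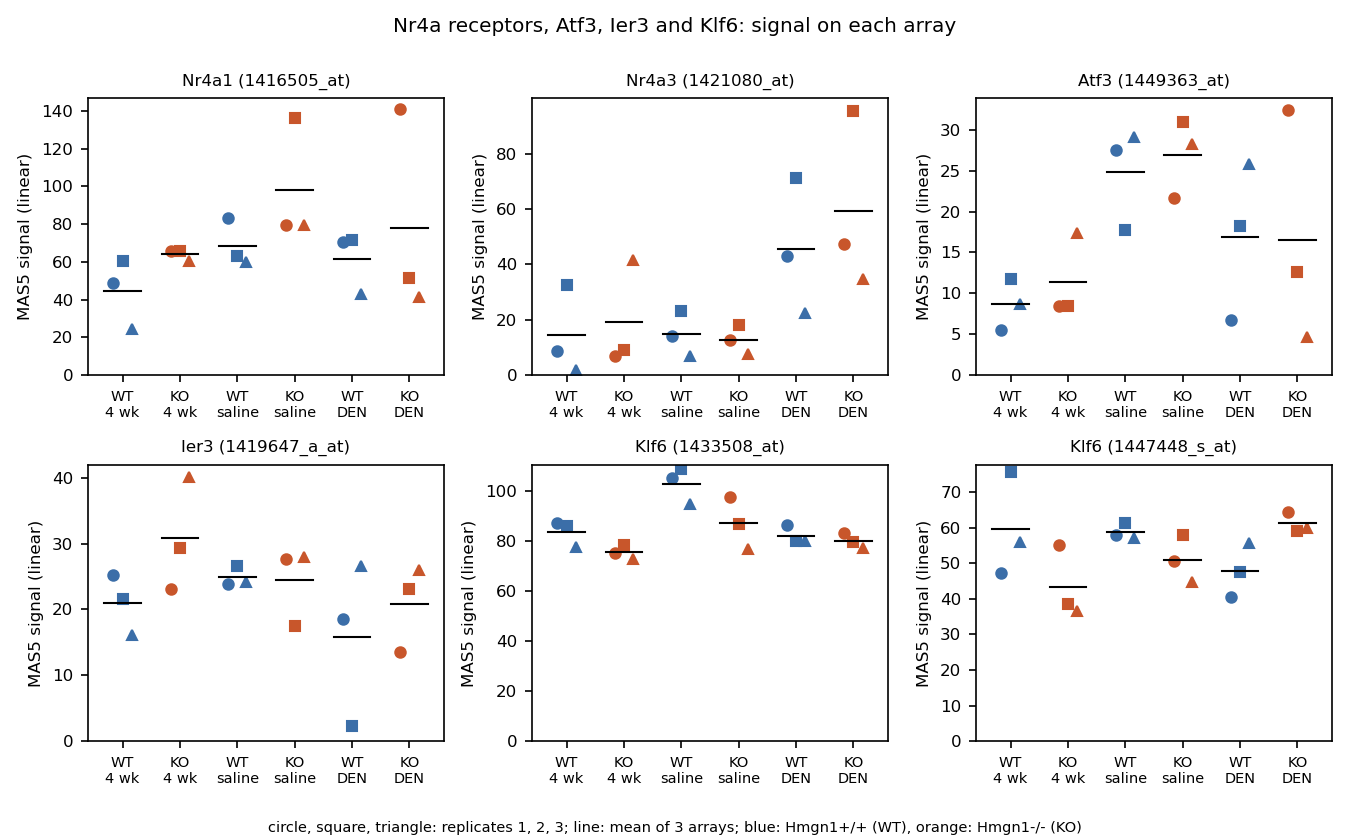
Signal of Nr4a1, Nr4a3, Atf3, Ier3 and 2 Klf6 probe sets on each array, on linear axes that start at 0, with 1 point per array and a line at the mean of 3. The Nr4a3 points of the DEN groups run from 22.5 to 95.3, those of the saline groups from 6.77 to 23.3 and those of the 4-week groups from 1.80 to 41.5.

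Ordered by group mean, Egr1 was lowest in wild-type livers at 4 weeks, at 442 ± 47.7 (SD, n = 3). It was 694 ± 578 and 794 ± 635 in wild-type and knockout livers after DEN, 823 ± 575 and 1311 ± 173 after saline, and 1846 ± 185 in knockout livers at 4 weeks. Only the step to the highest group was without overlap of neighbouring groups. Ier2 had the same lowest and highest groups, 256 ± 40.4 and 521 ± 63.1, and its single step without overlap was also the last, from 397 ± 42.9 in knockout livers after saline. Junb and Fos were likewise highest in knockout livers at 4 weeks, at 111 ± 13.5 and 72.2 ± 14.1, but the groups next below these overlapped with them. Fos was lowest in the DEN groups, at 17.1 ± 11.7 in knockout and 19.8 ± 19.8 in wild type. Jun was lowest in wild-type livers at 4 weeks with both probe sets, at 74.2 ± 14.3 and 52.8 ± 18.6, and highest in knockout livers after saline, at 173 ± 36.9 and 133 ± 12.0.

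Beyond the 10 members, 3 lists of related genes were followed in the same fits. Of 19 other transcription factors listed as immediate early or related to that group, 17 were tested. Membership in this list does not show that a gene, such as Jund, is induced as an immediate early gene. At 4 weeks 1 was higher in knockout, Csrnp1, an AXIN1-responsive nuclear protein (0.95, SE 0.19, adjusted p = 0.00978), and 0 were lower, with a list median of 0.27 beside 0.02 over all genes. Beside these counts, the shares of all tested probe sets called higher at 4 weeks and lower from 4 weeks to DEN in knockout livers are the 1.27% and 4.71% given above, and the same holds for the next 2 lists. From 4 weeks to DEN in knockout livers 2 were lower and 0 higher: Jund, the third Jun protein (-0.71, adjusted p = 0.00506), and Per1, a clock gene that also responds to stimuli within minutes (-0.82, adjusted p = 0.0288). In wild-type livers 1 was higher, Ier5l (0.86, adjusted p = 0.0311), where 1.97% of all probe sets were called higher. Jund was lower after DEN than after saline in wild type (-0.88, adjusted p = 0.000338) and in knockout (-0.75, adjusted p = 0.000932), and Per1 in knockout (-0.71, adjusted p = 0.0393). That made 1 of 17 in wild type and 2 of 17 in knockout, where 6.54% and 15.1% of all probe sets were called in either direction. From 4 weeks to saline Klf9 was lower in knockout (-0.45, adjusted p = 0.0106), the 1 of 17 called, where 9.94% of all probe sets were.

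Of 30 early response and feedback genes, 29 were tested. At 4 weeks 3 were higher in knockout and 0 lower. Pim1, a kinase that promotes survival, differed by 1.15 (SE 0.13, adjusted p = 6.63e-05). Nab2, which binds EGR proteins and represses them, differed by 0.93 (SE 0.19, adjusted p = 0.0107). Mcl1, a survival protein of the BCL2 family, differed by 0.45 (SE 0.11, adjusted p = 0.0291). The list median was 0.39 and 24 of 29 were above 0, beside 53.7% of all genes. From 4 weeks to DEN 6 were lower and 0 higher in knockout livers: Nab2 (-1.03), the MAP kinase phosphatase Dusp1 (-0.87), the kinase Sgk1 (-0.74), Pim1 (-0.68), the RNA-decay factor Zfp36 (-0.67) and the EGR corepressor Nab1 (-0.30). In wild-type livers 5 were higher, among them Phlda1 (1.52), the cytokine feedback inhibitor Socs3 (1.28), Tiparp (0.56) and Mcl1 (0.53), and 2 were lower, Gadd45b (-1.33) and Sgk1 (-0.49), where 1.97% of all probe sets were called higher and 4.4% in either direction. The change of the genotype difference from 4 weeks to DEN passed for 1, Pim1 (-0.999, adjusted p = 0.0159), where 0.762% of all probe sets passed. From 4 weeks to saline 4 of 29 were higher and 1 lower in wild type, where 4.22% of all probe sets were higher and 8.26% called in either direction. In knockout 0 were higher and 1 lower, where 9.94% were called in either direction. From saline to DEN 3 were lower in wild type and 2 in knockout, among them Spry4 (-1.06 and -0.99) and Sgk1 (-0.48 and -0.51) in both. Of all probe sets, 6.54% in wild type and 15.1% in knockout were called in either direction there, and 8.65% were lower in knockout.

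Of 30 kinases and factors that induce immediate early genes, 24 were on the array under the symbol used and all 24 were tested. At 4 weeks 1 was higher in knockout, Elk4, an ETS partner of serum response factor (0.33, adjusted p = 0.0446), and 0 were lower, with a median of 0.10. From 4 weeks to DEN in knockout livers the kinase Rps6ka3 was higher (0.51), and Cebpb (-0.74), Mkl2 (-0.55) and Crebbp (-0.43) were lower. These were 1 higher and 3 lower of 24, where 8.24% of all probe sets were called in either direction. In wild-type livers 0 of 24 passed, where 4.4% of all probe sets did. From 4 weeks to saline Map2k2 was lower in wild type (-0.45, limma adjusted p = 0.0117) and in knockout (-0.46, adjusted p = 0.00952). Atf2 was higher in wild type (0.40, adjusted p = 0.0301). No other gene of this list was called there, where 8.26% of all probe sets in wild type and 9.94% in knockout were called in either direction. From saline to DEN 2 of 24 were lower in knockout, where 8.65% of all tested probe sets were. These were Srf, the serum response factor gene itself (-0.78, adjusted p = 0.00444), and Map2k1 (-0.33). In wild type 1 of 24 was called, Creb1, which was lower (-0.41, adjusted p = 0.0231), where 6.54% were called in either direction.

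The genes whose centred log2 signal ran closest to that of Egr1 over the 18 arrays were Zbtb16, Hes1, Epha2, Nr0b2 and Id1, at a root mean square difference of 0.63 to 0.67, where a flat line would give 0.97. Closest to Fos were Sgk1, Nab2, Add2, Setd1b and Vasn, at 0.41 to 0.45 where a flat line gave 0.67. Closest to the brighter Jun probe set were Scarb1, Pcdhb6, Fgfr1, Gm31679 and Efcab14, at 0.22 to 0.24 where a flat line gave 0.40. These likenesses describe the same 18 arrays, whose groups and scaling all genes share. By position, the members lie on 8 chromosomes and 0 of them on chromosome 16, which carries Hmgn1. Ier2 (chr8:84661331-84662852) and Junb both lie on chromosome 8, 314056 bases apart. Of the 10 genes, 8 are shorter than 17146 bases, the median length of 21900 protein-coding genes.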

How the data were processed

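Total RNA of frozen mouse liver was measured on 18 Affymetrix arrays, 3 in each of 6 groups. The authors deposited linear signal intensity values, computed with MAS5 per the submitters' processing notes; the version and other steps are not given in the sources used here. The values of each array share a trimmed mean, as checked on the deposited table. Per the platform annotation, 34945 probe sets had 1 gene symbol, 932 several and 9160 none, and 64 control probe sets were left out of the tests.

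For this work 16 was added to each intensity and log2 was taken. Probe sets at or above the 40th percentile of mean log2 signal (27022 of 45101) entered one limma fit (limma 3.58.1, R 4.3.3) with 1 coefficient per group, 12 residual degrees of freedom and an intensity trend, tested on simulated data first. P-values were adjusted by Benjamini-Hochberg over all tested probe sets, and 0.05 was the threshold for 12 comparisons. The number of arrays limits the precision. Where a gene counts once, its probe set of highest mean was used.

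The members and gene lists were chosen with earlier results of these data known. All probe sets of the 10 members are described. Of the lists, every called gene was eligible to be named, up to 6 per list and comparison by smallest p. For Egr1, Fos and Jun the 5 genes of smallest root mean square difference are named. Marker lists covered hepatocytes, macrophages, neutrophils, lymphocytes, endothelium, stellate cells, cholangiocytes, red cells, pancreas, muscle and fat. Over all tested probe sets, the correlation of deviations of same-numbered arrays ran from -0.0978 to 0.116, so the fit has no replicate block. This does not settle the pairing for single genes such as Egr1, whose replicates kept the same order in all saline and DEN groups. With a replicate block, the Egr1 genotype difference at 4 weeks kept its size, with SE 0.39 and limma adjusted p = 0.00766. Alternatives were quantile normalization, centring of array medians, 1 or 64 added, no filter or a 60th percentile filter, a replicate block, the Gapdh ratio as a covariate, only the groups compared and leaving out each array; leaving out the saline arrays or the 4-week arrays of highest Gapdh ratio was chosen after seeing the data. Promoter windows came from RefSeq (GRCm38.p6) and were available for 8 of the 10 members, all but Egr1 and Ier2.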

Additional observations from a re-analysis of the deposited data

Results flagged for a closer look

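The genotype difference of Ier2 was called as different between 2 conditions, at the threshold of the test. Knockout minus wild type was 0.99 on the log2 scale at 4 weeks and 0.13 after DEN, and the test of the change gave -0.86 (SE 0.20, 95% interval -1.28 to -0.43, limma adjusted p = 0.0498). The knockout arrays were 586, 516 and 460.4 at 4 weeks and 385, 365 and 285 after DEN, while the wild-type arrays were 241, 302 and 225 and then 313, 341 and 283. Over the 11 other settings the change ran from -0.89 to -0.74 and the call was lost in 8 of them, with an adjusted p of up to 0.101. It was also lost in 9 of the 12 fits that left out 1 array. The 4-week and DEN arrays differ in labelled weeks and, in knockout livers, in the Gapdh ratio, whose part was not tested beyond the covariate fit.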

How the results depend on the processing

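Counts here are of the member probe sets called, and 15 were tested in the main fit. With the 60th percentile filter 9 were tested, and with no filter all 17. Fos and Nr4a3 fell below the 60th percentile filter, so their calls are missing there because they were not tested. The 4-week genotype count of 3 became 1, Ier2, with no filter, without the 6 saline arrays and without the 4-week arrays of highest Gapdh ratio, and 4, Jun added, with the 60th percentile filter and with the Gapdh covariate. For DEN minus 4 weeks in wild type the count of 1 became 0 with array medians centred, with no filter, with the Gapdh covariate, with only the groups compared, without the saline arrays and without the arrays of highest Gapdh ratio. In knockout the count of 3 became 0 with the Gapdh covariate and 1 without the arrays of highest Gapdh ratio, 2 with no filter, with the 60th percentile filter and without the saline arrays, and 4 with only the groups compared (Egr1 added, adjusted p = 0.0387). For saline minus 4 weeks in knockout the count of 0 became 1 with quantile normalization, 2 with medians centred, 2 with 64 added, 1 with the 60th percentile filter and 4 with only the groups compared. For DEN minus saline in knockout the count of 3 became 1 with no filter, 2 with quantile normalization, medians centred, 1 added and the 60th percentile filter, and 4 with 64 added, and under the Gapdh covariate and with only the groups compared the dimmer Jun probe set took the place of the brighter. The interaction count of 1 (DEN against 4 weeks) became 0 with quantile normalization, medians centred, 1 added, no filter, the Gapdh covariate, only the groups compared, without the saline arrays and without the arrays of highest Gapdh ratio. The replicate number as a block was also tried, although correlations over all tested probe sets did not show a pairing. With it, saline minus 4 weeks in knockout had 2 calls (Jun, adjusted p = 0.0268, and Junb, adjusted p = 0.0487). DEN minus 4 weeks in knockout had 4 (Egr1 added, adjusted p = 0.0226), and the other 10 counts were as without it. Leaving out 1 array at a time gave 1 to 2 calls for genotype at 4 weeks, 0 to 0 after saline and after DEN, 0 to 1 and 0 to 4 for DEN minus 4 weeks in wild type and knockout, 1 to 1 and 0 to 1 for saline minus 4 weeks, 0 to 1 and 0 to 6 for DEN minus saline, and 0 to 1 for the interaction between DEN and 4 weeks and 0 to 0 for the other interactions. No called value changed sign in any setting. The cause of these changes was not tested. Centring array medians moved the split of all calls at 4 weeks from 343 higher and 268 lower to 169 and 198, and that for DEN minus 4 weeks in wild type from 531 and 659 to 240 and 1144. Members of low signal (Atf3, Ier3, Nr4a3 and, after DEN, Fos) are limited by their signal, and their log2 differences depend on the number added.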
